A study of Mus musculus with 18 samples.

Results

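The unirradiated jejunum in this series is represented by 6 libraries, the controls labelled as having received no treatment, out of 18 libraries in all. They were chosen by that label alone, and all genes were kept. The study irradiated the abdomen of C57BL/6 mice with 15 Gy in a single fraction, at a conventional dose rate (CONV, 5 libraries) or at an ultra-high dose rate (FLASH, 7 libraries), and took the whole jejunum 16 h later for stranded mRNA sequencing. The mice were 8 to 12 weeks old and kept free of specific pathogens. The labels name no transgene or mutant allele in any of the 3 groups, and they do not say whether the untreated mice were handled or anaesthetised as the irradiated ones were. The labels do not give the sex of the mice, and nothing says that the libraries are from separate animals. The spread reported here is between these 6 libraries, and part of it may be technical.

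The jejunum is the middle stretch of the small intestine, where most sugar, amino acid and fat is absorbed. Its epithelium is renewed from stem cells in the crypts, with Paneth cells beside them that secrete antimicrobial peptides, and with absorptive enterocytes, goblet, tuft and enteroendocrine cells on the villi. Below the epithelium lie blood and lymph vessels, fibroblasts, nerves, smooth muscle and many immune cells, among them plasma cells that secrete IgA. Lymphoid follicles (Peyer's patches and smaller isolated follicles) occur at intervals along the gut wall, so a piece of jejunum may hold much, little or no follicle tissue.

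The control libraries held 24342264 to 27765521 counts each, with at least 1 count in 21129 to 22284 genes. Levels of a gene between libraries are given as counts per 1000000 (CPM) after TMM scaling, which corrects each library's total for its composition. Differences are given on the log2 scale, where 1 unit is a doubling, and SD is the standard deviation over the 6 control libraries. The libraries differed in how level tracked transcript length. The slope of a library's log2 deviation from the gene means, per doubling of transcript length over 8939 protein-coding genes, was 0.235, 0.317, -0.0142, 0.261, 0.236 and -0.412 in controls 1 to 6. Long transcripts were thus low and short transcripts high in control 6, and the slope was steepest the other way in control 2. For many of the results that rest on these libraries, the SD after removal of each library's trend on length and GC content is also given, as the "length-adjusted SD".

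The markers of small-intestinal epithelium were abundant in all 6 libraries. Epcam, the epithelial adhesion molecule, was at 1322 to 2014 CPM, the brush-border protein gene Vil1 at 1088 to 3136 CPM, and the intestinal transcription factor gene Cdx2 at 119 to 219 CPM. Gata4, a transcription factor of the proximal and middle small intestine, was at 61.1 to 120 CPM, while the duodenal factor Pdx1 was at 0 to 0.149 CPM. Lct (lactase) was at 408 to 1533 CPM and Sis (sucrase-isomaltase) at 1828 to 3213 CPM. None of 11 stomach genes passed the filter on low counts. Prss2, a trypsinogen of the exocrine pancreas, was at 0 to 0.073 CPM. Xist, the RNA of the inactive X chromosome, was at 45.4 to 291 CPM in the controls and the Y-linked Ddx3y was at 0 in each, where a count of 0 allows up to 0.0892 to 0.112 CPM (3 counts, counting error only).

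Transcripts of mitochondrial respiration, lipoprotein assembly, Paneth cell defence and IgA led the control transcriptome. mt-Co1, which encodes a subunit of cytochrome c oxidase, held the largest mean share of counts, 1.88 ± 0.783% (SD, n = 6), from 0.88% in control 6 to 3.1% in control 2 (log2 SD of its CPM 0.58, length-adjusted SD 0.97). Among the 20 genes with the highest mean CPM were Apoa1 and Apoa4, the apolipoproteins of chylomicrons and HDL, Fabp2, the fatty acid binding protein of enterocytes, and Anpep, a brush-border peptidase. The same 20 held Lyz1, the Paneth cell lysozyme, Igha and Igkc, the constant regions of IgA heavy and kappa light chains, and Selenop, the selenium carrier. In bulk tissue, fewer cells of a type and less RNA per cell cannot be told apart, and this holds for every cell-type gene below.

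The distribution was spread over many genes. The 10 most abundant genes by mean CPM held 8.24 ± 1.65% of counts, the top 100 held 28.6 ± 1.12% and the top 1000 held 59.4 ± 1.73% (SD, n = 6). In each library 8303 to 9088 genes reached 10 CPM and 68 to 121 genes reached 1000 CPM. Leading genes were not equally steady. Selenop ran at 4112, 2357, 5841, 5154, 3540 and 13440 CPM in controls 1 to 6 (log2 SD 0.85, length-adjusted SD 0.66), with control 6 far above the rest, whereas Lyz1 lay between 4953 and 7751 CPM (log2 SD 0.22, length-adjusted SD 0.34). Apoa4 ran at 5221, 1467, 5730, 5116, 2957 and 10149 CPM, lowest in control 2 and highest in control 6 (log2 SD 0.95, length-adjusted SD 0.94). Actb was at 2823 to 5235 CPM and Gapdh at 974 to 1743 CPM.

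Scaled by transcript length, so that genes can be set against each other, the Paneth cell defensins came to the front (counts were divided by transcript length and rescaled to the same total). Alpha-defensins are short cationic peptides that Paneth cells release to kill bacteria. Defa24 had the highest mean length-scaled level of any single gene, 23207 ± 1861 length-scaled CPM (SD, n = 6), from 20464 to 26170. It did not lead in every library: in control 2, mt-Co1 was at 32295 length-scaled CPM and Defa24 at 23497. In control 4, mt-Co1 was at 24916 and Defa24 at 20464. The reads of mt-Co1 are split with nuclear copies of the same sequence. Gm10925, a nuclear copy of mt-Atp6, ranked next by its mean, at 21224 length-scaled CPM. The lead of Defa24 depends on how reads are split between copies. Defa2, Defa33, Defa20 and Defa32, of similar length, together had a mean of 6588 CPM, against 5197 CPM for Defa24. Of the 20 genes with the highest length-scaled level, 9 were alpha-defensins of the Defa series: Defa24, Defa2, Defa23, Defa20, Defa21, Defa3, Defa22, Defa30 and Defa36. The Defa genes held 3.21 ± 0.635% of all counts, from 2.37% in control 4 to 4.1% in control 2. Defa24 was among the steadiest of them, at 4835, 4891, 5108, 4561, 5372 and 6414 CPM in controls 1 to 6 (log2 SD 0.17, length-adjusted SD 0.19). Defa3 lay between 1840 and 2178 CPM (log2 SD 0.08, length-adjusted SD 0.22).

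**Figure D1:**
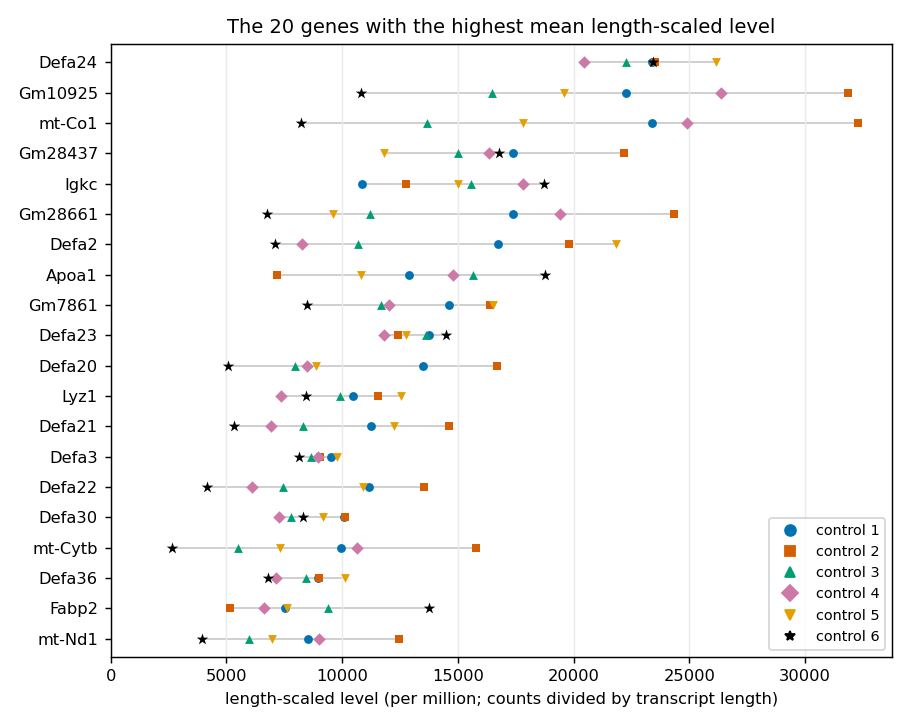
Length-scaled level (CPM after division by transcript length, linear axis) of the 20 genes with the highest mean, with 1 symbol per control library. Defa24 spans 20464 to 26170 and leads by its mean among single genes, with copies not summed. mt-Co1 runs from its lowest value in control 6 to its highest in control 2.

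Several defensin genes are near-identical copies on chromosome 8, and reads of 100 bp cannot always be assigned to 1 copy. The coding sequences below are those of the mm10 annotation, all on the plus strand, and are shown because the values of single copies depend on them. The coding sequences of Defa2 (chr8:21378560-21379402, start to stop codon with introns) and Defa20 (chr8:21509301-21510143) differ at 1 of 288 bases, G103C, counted from 1 at the first base of the start codon and shown in capitals.
Defa2: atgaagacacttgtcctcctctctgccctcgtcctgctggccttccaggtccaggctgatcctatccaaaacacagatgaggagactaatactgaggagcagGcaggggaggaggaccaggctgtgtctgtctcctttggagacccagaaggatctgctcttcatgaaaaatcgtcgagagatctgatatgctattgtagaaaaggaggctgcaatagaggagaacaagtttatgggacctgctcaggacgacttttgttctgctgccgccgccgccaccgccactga
Defa20: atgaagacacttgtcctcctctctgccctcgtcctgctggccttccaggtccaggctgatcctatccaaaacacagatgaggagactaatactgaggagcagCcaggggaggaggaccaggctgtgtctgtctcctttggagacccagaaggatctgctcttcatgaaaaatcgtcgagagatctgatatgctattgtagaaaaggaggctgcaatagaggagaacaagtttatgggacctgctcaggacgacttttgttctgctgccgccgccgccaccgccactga
Defa33 (chr8:21391856-21392698) has the coding sequence of Defa2 without a difference, and Defa32 (chr8:21529075-21529918) that of Defa20. The coding sequences of Defa23 (chr8:21055081-21055921), which Defa31 shares base for base, and Defa24 (chr8:21734537-21735377) differ at 12 of 282 bases (95.7% identity), in capitals.
Defa23: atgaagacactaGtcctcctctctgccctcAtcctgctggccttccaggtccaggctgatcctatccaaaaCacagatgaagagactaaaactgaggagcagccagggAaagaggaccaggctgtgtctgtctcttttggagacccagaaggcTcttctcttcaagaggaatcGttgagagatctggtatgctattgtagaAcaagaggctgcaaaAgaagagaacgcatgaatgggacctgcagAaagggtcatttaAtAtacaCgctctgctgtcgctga
Defa24: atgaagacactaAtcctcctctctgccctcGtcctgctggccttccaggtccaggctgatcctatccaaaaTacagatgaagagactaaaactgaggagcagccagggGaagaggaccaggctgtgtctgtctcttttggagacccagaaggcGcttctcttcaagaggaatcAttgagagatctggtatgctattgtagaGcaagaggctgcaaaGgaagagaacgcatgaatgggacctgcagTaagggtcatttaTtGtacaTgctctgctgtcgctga

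The counts of some single copies varied far more than the sums of the copies. Defa33 had the largest SD of any gene with an established symbol, with 1163, 1584, 679, 528, 0 and 364 CPM in controls 1 to 6 (log2 SD 5.47). The sum of Defa33 and Defa2, its identical copy, was 4679, 5777, 3174, 2400, 4552 and 2343 CPM (log2 SD 0.54). Control 5, in which Defa33 was at 0, was thus the third highest library for the sum. Defa31 was at 74.2 CPM in control 1 and at most 0.62 CPM elsewhere (log2 SD 3.86), while its sum with Defa23 lay between 2536 and 3892 CPM (log2 SD 0.24). Gm7849 (log2 SD 4.66) and Gm7861 are a further pair with identical coding sequences, and their sum lay between 3033 and 4302 CPM (log2 SD 0.19). These single-copy values are uncertain, because the split between identical copies is an estimate of the counting software.

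The summed defensins of the Defa2 and Defa20 type still differed between libraries. Defa2, Defa33, Defa20 and Defa32 together were at 7912, 10197, 5283, 4322, 7792 and 4020 CPM in controls 1 to 6, highest in control 2 and lowest in controls 4 and 6. Among other Paneth cell genes, Itln1, an intelectin, ran from 2248 to 2890 CPM and Ang4, an antimicrobial ribonuclease, from 550 to 1184 CPM. Pla2g2a, a bactericidal secreted phospholipase, was at 16.7 to 40.8 CPM. Mptx1, a mucosal pentraxin, was at 4.81 CPM in control 1, 2.49 CPM in control 2 and 0.365 to 1.17 CPM in the others. Of 14 genes on a second Paneth cell list, which holds Defa30 but no other Defa gene, Mptx1 was the 1 gene with an SD of 1 or more (log2 SD 1.38), a share close to that over all genes given below.

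By gene class, protein-coding genes held 94.6 ± 0.733% of counts (SD, n = 6). The mitochondrially encoded mRNA genes held 4.5 ± 1.99%, from 2.05% in control 6 to 7.76% in control 2, with 3.04% to 5.18% in the other 4 libraries. Together with their nuclear copies, which take up reads of the same sequence, mitochondrial genes held 4.25% to 11.7%. Cytosolic ribosomal protein genes went the other way and held 5% in control 6 against 2.3% to 3.06% in the others. Apolipoprotein genes held 1% in control 2 and 2.72% in control 6. Collagen genes held 0.283% in control 2 and 0.0277% in control 6. Counting error was small beside these differences: the widest Wilson 95% interval of a class share reached 0.0125 percentage points to either side. The length and GC trend was not. With it removed, the median SD of the members fell from 0.51 to 0.27 for ribosomal protein genes and from 1.02 to 0.59 for collagen genes. It fell from 0.68 to 0.47 for apolipoprotein genes and rose from 0.70 to 1.07 for mitochondrially encoded mRNA genes.

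Immune and antibacterial classes also differed between libraries. Immunoglobulin constant genes held 0.834% to 1.46% of counts, with control 4 highest, and variable segments held 0.219% to 0.485%. Genes of MHC class II, which present peptides to CD4 T cells, held 0.363% in control 1 and 0.895% in control 3. The Reg genes, which encode antibacterial lectins of the epithelium, held 0.336% in control 2 and 0.358% in control 1, against 0.58% to 0.728% in the other 4 libraries. Haemoglobin genes, a measure of residual blood, held 0.00223% to 0.01%. Gm42418, an annotated gene that overlaps ribosomal RNA sequence, held 0.906% in control 6 and 0.233% to 0.371% in the others.

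**Figure D2:**
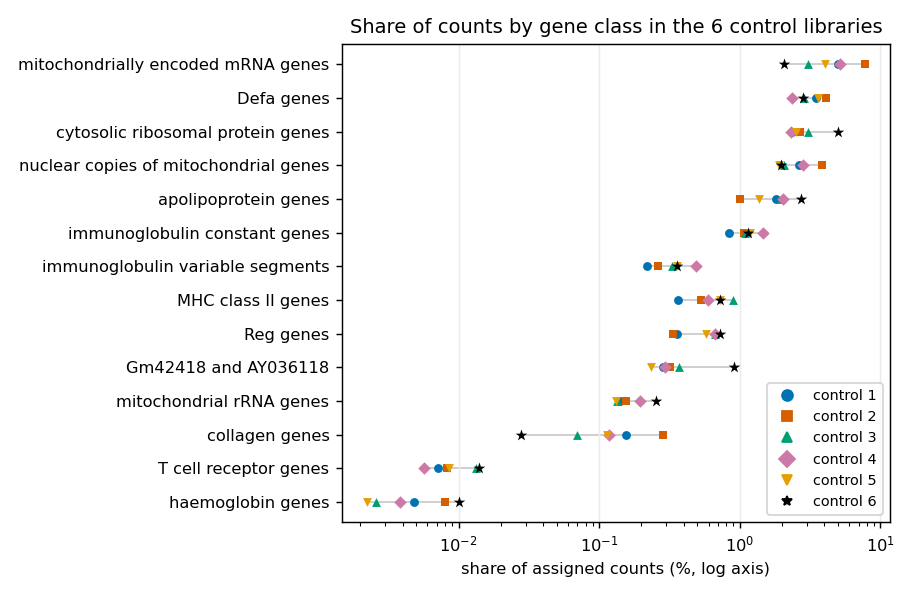
Share of all counts held by each gene class, in percent on a log axis, with 1 symbol per control library. Control 6 has the lowest share in mitochondrially encoded (2.05%) and collagen genes (0.0277%) and the highest share in ribosomal protein genes (5%).

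Variation between the control libraries was modest for most genes. Among 10802 genes with a mean of at least 5 CPM the median SD of log2 CPM was 0.36, and the middle 50% of genes lay between 0.24 and 0.54. An SD of 1 or more was reached by 391 genes, 3.62% of those examined, and an SD of 2 or more by 37. Over all 16257 genes that passed the filter on low counts, 1054 (6.48%) reached an SD of 1. Without control 6 the median SD was 0.23, and 161 genes reached an SD of 1. With each library's length and GC trend removed, 197 genes did so, of which 166 were among the 391. Many of the 391 calls thus rest on control 6.

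The 391 genes were unevenly drawn from the genome. Of 118 immunoglobulin V, D and J segments with a mean of at least 5 CPM, 75 were among them, or 63.6%. All 75 were V segments, 67% of the 112 V segments at that level. Genes that share at least 50% of their 31-base words with another gene contributed 61 of 545, or 11.2%, and genes of neither kind 283 of 10192, or 2.78%. Some immunoglobulin segments are also among the genes with shared words, so these counts overlap and 11.2% is not the share outside the segments. Control 6 was the lowest library for 255 of the 391 and control 2 the highest for 214. Besides the defensin copies, some of the most variable genes belonged to an overlapping or duplicated pair. Zc3h11a has 2 entries in the annotation, and the more variable entry was at 32.8, 46.6, 31.6, 0, 39.8 and 0 CPM (log2 SD 4.62), but the sum of both was 49.6 to 77 CPM (log2 SD 0.24). Taf9 (log2 SD 2.76) and Ak6 overlap, and their sum had a log2 SD of 0.53. Rpl35a-ps2, Rpl35a-ps3, Rn7s2 and Hist2h2aa2, each a copy of a multigene family, were at 0 in 1 to 3 libraries and at 10.1 to 22.8 CPM in control 6.

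At the other end stood genes that hardly differed. Of 1585 genes with a mean of at least 100 CPM, the steadiest was Serbp1, an mRNA-binding protein gene, at 220 to 232 CPM (log2 SD 0.03). Pum2, a translational repressor, was at 131 to 140 CPM and Hnrnpf, a splicing factor, at 345 to 377 CPM (log2 SD 0.04 for both). Gdpd1, Mob1a, Cct2, Hnrnpk and Pa2g4 followed with a log2 SD of 0.05, and Tmod3 and Mapre1 with 0.06. The order of these genes depends on the length and GC trend: with it removed, Serbp1 had an SD of 0.57 and Hnrnpf 0.06. Common reference genes were less steady, Gapdh with a log2 SD of 0.29 and Actb with 0.31. Polr2a, the large subunit of RNA polymerase II and a long transcript, was at 16.2 CPM in control 6 and 75 to 145 CPM in the others.

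A principal component analysis of the 10802 genes put 68% of the variance on the first component and 14.6% on the next. Control 6 had a score of 81.1 on the first, control 2 had -46.7, and the other 4 lay between -23.1 and 17.6. Controls 2, 3 and 6 took the same places in the order of the scores as in the reverse order of the length slopes. Among the genes that weighed most on it, Gsta1, a glutathione transferase, was at 238 CPM in control 6 and 8.03 to 71.5 CPM in the others, and the brush-border phospholipase gene Plb1 at 22.6 CPM against 126 to 738 CPM. Among the shortest 20% of transcripts (204 to 1756 bases) the median gene of control 6 was 0.83 log2 units above the median of the other controls. Among the longest 20% (5048 bases and more) the difference was -1.0 log2 units. After removal of the length and GC trends the first component still held 56.9% of the variance, with control 6 at 55.1 and control 2 at -44.9.

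Single libraries stood apart for many genes. By a gap criterion that flags 1 of 6 values lying far from the nearest of the others (Dixon's test at 95% on log2 CPM, which chance meets in about 1 of 20 genes), 1749 of 10802 genes (16.2%) had such a library. The library apart was the high one for 629 genes (5.82%) and the low one for 1120 (10.4%). Control 6 accounted for 528 of the former and 993 of the latter. Control 2 accounted for 68 and 83 and controls 1, 3, 4 and 5 for 4 to 17 genes in each direction.

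To describe cell types and pathways, 67 gene lists were scored as the mean log2 CPM of their members that passed the filter. The lists were written for this tissue with earlier results of these data known. Of 63 lists with at least 5 such members, 15 had a score whose SD over the controls was 0.5 or more, and the median SD was 0.33. The most variable were B cells (SD 1.71), endothelium (1.08), adipocytes (0.85), germinal centre and follicle genes (0.79) and fibroblast and matrix genes (0.70). The steadiest scores were those of the unfolded protein response (0.09), hypoxia-inducible genes (0.09), reference genes (0.10), goblet cells (0.11), the circadian clock (0.11), hepatocyte genes (0.11, 6 measured) and p53 targets (0.12). A steady score can hide members that move in opposite directions. The median SD of the members was 0.75 for hepatocyte genes, 0.45 for goblet cells and 0.42 for the clock, against 0.43 over all 16257 genes. For the other lists just named it was 0.29 to 0.36.

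**Figure D3:**
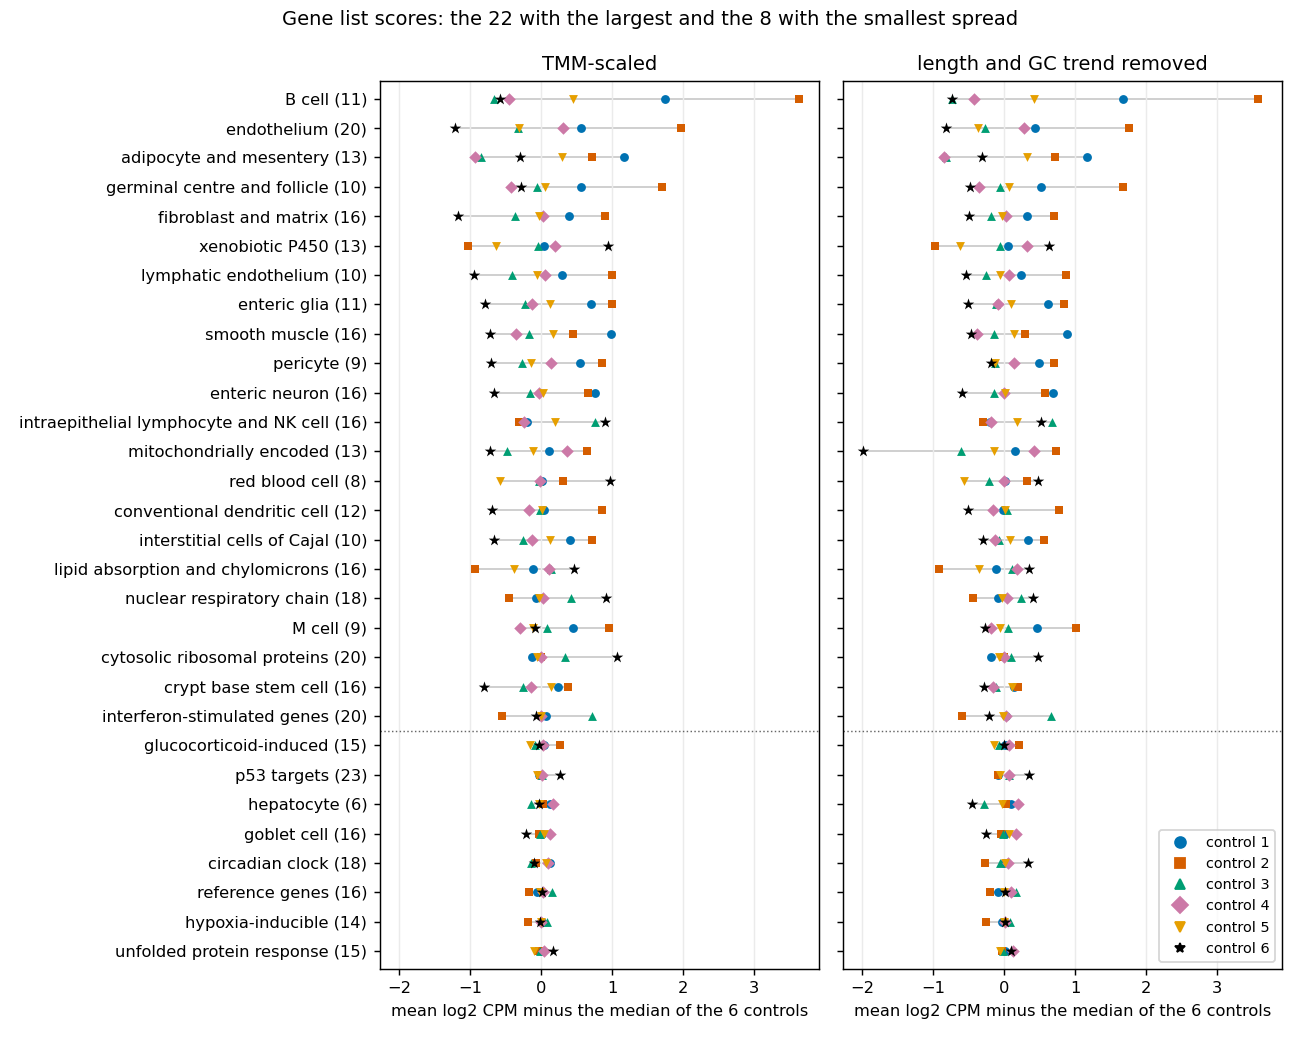
Scores of the 22 gene lists with the largest and the 8 with the smallest spread, as mean log2 CPM minus the median of the 6 controls, with 1 symbol per library and the number of measured genes in brackets. The left panel is TMM-scaled and the right panel has the length and GC trend removed: control 2 is highest for B cells and endothelium in both, while control 6 moves towards the others for fibroblast and crypt base stem cell genes in the right panel.

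B cell transcripts differed most. Ms4a1, which encodes the B cell surface protein CD20, was at 7.97, 37.8, 0.183, 0.558, 1.34 and 0.693 CPM in controls 1 to 6 (log2 SD 2.67). Control 2 was highest, control 1 next, and the remaining 4 were at or below 1.34 CPM. Ighd, the constant region of IgD on naive B cells, was at 11.9, 42.3, 0.767, 0.223, 1.96 and 0.62 CPM (log2 SD 2.72). Fcmr, the receptor for IgM, was at 22.4 CPM in control 2 and 6.22 CPM in control 1, against 0.11 to 1.37 CPM elsewhere. Of 11 measured genes on the B cell list, 8 had an SD of 1 or more, set against 6.48% of all 16257 genes. Cd79a, which plasma cells also express, varied less (16.6 to 65.1 CPM, log2 SD 0.77). Removing the length and GC trend left the SD of the list score at 1.71.

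Genes of organised follicles went with them. Cxcl13, the chemokine that draws B cells into follicles, was at 5.87, 35.9, 2.52, 1.82, 4.55 and 2.41 CPM in controls 1 to 6, and Madcam1, the addressin of mucosal high endothelial venules, at 8.22, 37.1, 2.45, 2.27, 2.85 and 1.82 CPM. Control 2 was alone at the top for both genes and control 1 was next. Spib, a transcription factor of B cells and of the M cells over follicles, was at 13.4 CPM in control 1 and 31 CPM in control 2, against 4.38 to 5.69 CPM in the others. Mfge8, expressed by follicular dendritic cells among others, was at 303 CPM in control 2 and 34.1 to 92.1 CPM in the rest. Pax5, Cr2 and Fcer2a, which mark B cells and follicular cells, did not pass the filter over all 18 libraries. Among the controls they had the same order at the top. They were at 14.5 to 25.5 CPM in control 2, 3.34 to 4.5 CPM in control 1 and at most 1.01 CPM elsewhere. Whether the RNA came from all of each jejunum or from a part of it is not given in the labels. The part of follicle tissue in these values was not tested.

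The M cell marker Gp2 was at 1.81 CPM in control 1, 2.27 CPM in control 2 and 0.84 to 1.45 CPM in the others, a smaller difference than for B cells (log2 SD 0.52). T cell genes did not follow the B cell order as a list (score SD 0.35). Cd3g, a chain of the T cell receptor complex, was at 24.3 CPM in control 3 and 26.5 CPM in control 6, against 9.87 to 16.1 CPM in the others. Cd4 was highest in control 2, at 31.4 CPM, and lowest in control 6, at 6.42 CPM.

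IgA dominated the antibody heavy chains in every control. Igha held 96.1%, 90%, 99.3%, 99.6%, 99% and 98.8% of heavy-chain constant counts in controls 1 to 6. Its level of 3886 to 8209 CPM had a log2 SD of 0.39, and Igkc lay between 2849 and 6503 CPM. Jchain, the chain that joins IgA into dimers, was at 827 to 2788 CPM, highest in control 6. Ighm, the constant region of IgM, was at 93.8 CPM in control 1 and 249 CPM in control 2, against 16.1 to 27.7 CPM in the others. The IgG genes were also highest in control 2. Ighg2b was at 151 CPM there, 37.4 CPM in control 1 and 8.68 to 22.7 CPM elsewhere. Ighg1 was at 38.3 CPM in control 2 and at 0.484 to 10.4 CPM in the rest. Ighe was at 0 in all 6. The plasma cell list as a whole was steady (score SD 0.21).

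The variable segments showed a different pattern, in which the most used segment was not the same in all libraries. Among heavy V segments it was Ighv1-26 in controls 1 to 3, Ighv7-1 in controls 4 and 6, and Ighv14-3 in control 5. A V segment is 1 of many gene pieces from which a B cell clone builds its antibody, so a segment can be abundant when few clones use it heavily. Ighv7-1 (chr12:113896408-113896946, mm10) was at 0.5, 0.472, 113, 213, 68.1 and 273 CPM in controls 1 to 6 (log2 SD 4.20). It was almost absent from controls 1 and 2 and made up 31% of heavy V counts in control 6, 9.9% in control 4, 9.7% in control 3 and 5.03% in control 5. Only 6.01% of its 31-base words occur in another gene, so shared reads are few. Igkv8-28, a kappa segment, ran in a similar order with 6.41, 20.1, 139, 234, 67.9 and 572 CPM (log2 SD 2.37) and made up 23.8% of kappa V counts in control 6. More of its sequence is shared, 55.3% of its 31-base words. For Ighv1-26 that share was 74.8%, so its rank and its part of heavy V counts depend on how shared reads were assigned.

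Other segments were high in a single library. Ighv14-3 made up 13.1% of heavy V counts in control 5, at 177 CPM against 0.547 to 25.1 CPM in the others. Igkv6-32 made up 9.09% of kappa V counts in control 1, at 88.5 CPM against 1.25 to 19.7 CPM. Igkv3-1 was at 30.1 CPM in control 4 and at most 0.475 CPM elsewhere, and Igkv4-69 was at 29.1 CPM in control 6 and at most 0.621 CPM elsewhere. Ighv1-26 was used more evenly, with 10.5% to 10.7% of heavy V counts in controls 1 to 3 and 2.61% to 5.1% in controls 4 to 6. The effective number of heavy V segments (the number of equally used segments that would give the same evenness) was 8.81 in control 6 and 23.6 to 28.9 in the others. For kappa V it was 12 in control 6 and 17.9 to 24.3 in the others. The counts behind these shares were 24141 to 57881 heavy V and 31160 to 65766 kappa V counts per library.

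**Figure D4:**
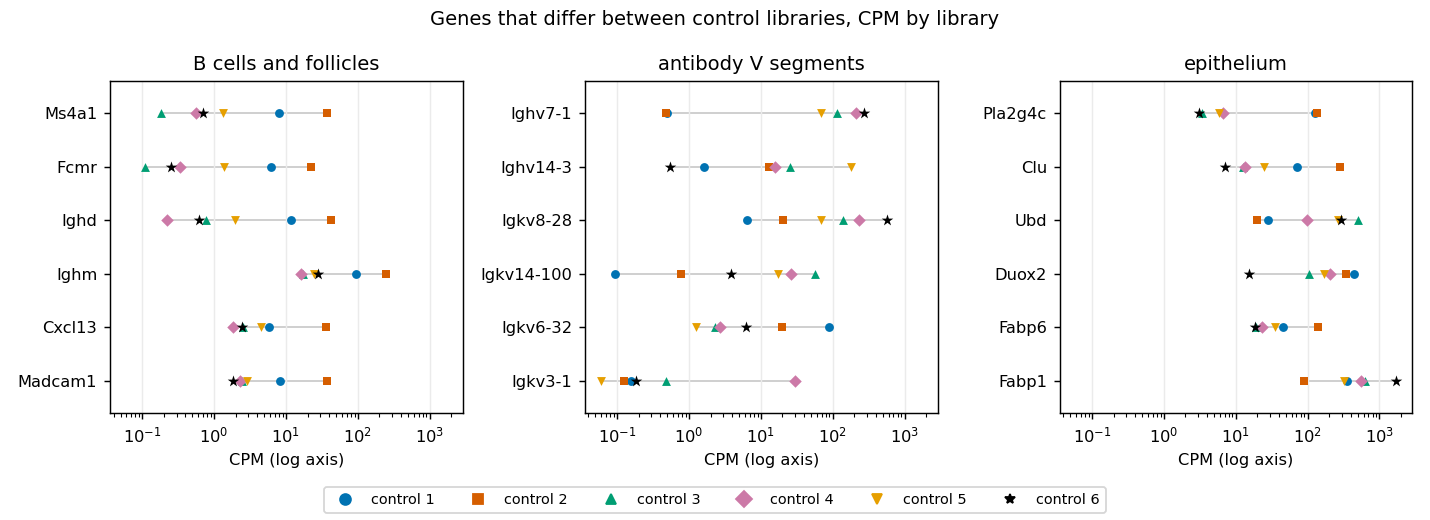
Level of 18 variable genes in each control library, in CPM on a log axis, in 3 panels (B cells and follicles, antibody V segments, epithelium), with 1 symbol per library. Controls 1 and 2 lie at the top for the B cell genes and at the bottom for Ighv7-1, Igkv8-28 and Ubd.

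Endothelial genes formed the second most variable list. Vwf, the clotting glycoprotein of blood vessel endothelium, was at 22.1, 67.4, 7.23, 17.7, 7.76 and 1.82 CPM in controls 1 to 6 (log2 SD 1.75, length-adjusted SD 1.16). Control 2 was highest and control 6 lowest. Pecam1, the adhesion molecule of endothelial junctions, was at 43.2, 114, 24.7, 34.3, 20.5 and 17 CPM (log2 SD 0.99, length-adjusted SD 0.88), and Plvap, of fenestrated capillaries, at 92.5, 255, 61.9, 81.8, 49.6 and 34 CPM (log2 SD 0.99). The receptor genes Kdr and Flt1, which bind VEGF, were at 63.7 and 62.3 CPM in control 2 and at 3.03 and 2.99 CPM in control 6. Of the 20 genes on the list, 13 had an SD of 1 or more (6.48% of all genes). The 2 short transcripts Cldn5 (3.54 to 12.8 CPM) and Egfl7 (4.95 to 13.5 CPM) were highest in control 2 too, but were not low in control 6: Egfl7 was at 8.61 CPM there. With the length and GC trend removed the SD of the list score was 0.91, against 1.08 before, and without control 6 it was 0.94. Over the irradiated groups the same score had an SD of 0.36 (CONV) and 0.44 (FLASH), a difference in spread that was not tested for the list.

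Lymphatic and mural genes followed with smaller differences. Prox1, the transcription factor of lymphatic endothelium, was at 9.32 CPM in control 2 and 0.547 CPM in control 6, with 1.83 to 4.35 CPM between. Ccl21a, a chemokine of lymphatic vessels and lymphoid stroma, was at 131 CPM in control 2 and 20.9 to 47.7 CPM in the others, with a length-adjusted SD of 1.01. Among pericyte genes, Notch3 ran from 0.511 CPM in control 6 to 16.8 CPM in control 2, whereas Rgs5 lay between 152 and 320 CPM.

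The scores of the fibroblast, smooth muscle and enteric neuron lists were lowest in control 6, and each had a smaller SD with the length and GC trend removed. Col1a1, a chain of type I collagen, was at 102, 185, 33.1, 58.1, 54.4 and 6.42 CPM in controls 1 to 6 (log2 SD 1.65, length-adjusted SD 1.11). Dcn, the short-transcript proteoglycan decorin of the same fibroblasts, was at 81.8 to 158 CPM and at 93.4 CPM in control 6. The fibroblast and matrix score had an SD of 0.70, and 0.42 with the trend removed. Myh11, the smooth muscle myosin, was at 757, 646, 227, 356, 378 and 54.8 CPM (log2 SD 1.37, length-adjusted SD 0.87). Acta2, smooth muscle actin and a shorter transcript, was at 705, 523, 382, 246, 427 and 290 CPM (log2 SD 0.55, length-adjusted SD 0.58). Control 1 was thus highest for both muscle genes, and control 4, not control 6, was lowest for Acta2. Nos1, the enzyme of inhibitory enteric neurons, was at 0.219 CPM in control 6 and 2.23 to 6.68 CPM elsewhere, while Vip, a peptide of the same nerves, lay between 12.9 and 22 CPM.

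Adipocyte genes had an order of their own. Adipoq, the adipocyte hormone adiponectin, was at 9.69, 6.11, 0.913, 0.261, 3.54 and 4.08 CPM in controls 1 to 6 (log2 SD 1.82, length-adjusted SD 1.80). Controls 1 and 2 were highest and controls 3 and 4 lowest. Plin1, which coats fat droplets in adipocytes, was at 4.59, 2.36, 0.511, 0.186, 3.06 and 0.985 CPM, low in the same pair. Of 13 measured genes on the list of adipocyte and mesentery genes, 8 had an SD of 1 or more (6.48% of all genes). Genes of the list that enterocytes also express, such as Cidec (24.6 to 72.9 CPM), were less variable. How much mesenteric fat stayed on each jejunum is not given in the labels and its part was not tested.

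In the epithelium, several genes of fat handling varied widely. Fabp1, a fatty acid binding protein of enterocytes, was at 355, 88.2, 633, 549, 323 and 1720 CPM in controls 1 to 6 (log2 SD 1.41, length-adjusted SD 1.08). Apoc3, an apolipoprotein of chylomicrons, was at 243, 78.9, 377, 266, 175 and 933 CPM (log2 SD 1.18, length-adjusted SD 0.97). Control 2 was lowest and control 6 highest for both. Apob, the structural protein of chylomicrons and a very long transcript, did not follow that order and was at 2663, 2100, 1904, 4563, 2173 and 941 CPM. Of 16 genes of lipid absorption and chylomicrons, 3 had an SD of 1 or more (6.48% of all genes). Transport genes for sugars and peptides were steadier: Slc5a1, the sodium-glucose cotransporter, lay between 1355 and 2394 CPM and the peptide transporter gene Slc15a1 between 398 and 710 CPM, both lowest in control 2.

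Drug-metabolising cytochrome P450 genes showed the same extremes. Cyp3a11 was at 251, 65.5, 224, 259, 96.3 and 718 CPM in controls 1 to 6 (log2 SD 1.21, length-adjusted SD 1.07). Cyp2b10 was at 13 CPM in control 2 and 94 CPM in control 6, and Cyp2c66 at 2.05 and 55.5 CPM. Of 13 measured P450 genes, 4 had an SD of 1 or more (6.48% of all genes), while Cyp4f14, at 613 to 1092 CPM, was among the steady ones.

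Some markers of position along the gut set control 2 apart, while the list scores did so less. The ileum score was 5.58 in control 2, 5.28 in control 1 and 4.52 to 5.02 in the others. The large intestine score instead set control 6 apart, at 4.90 against 5.57 to 5.84. Fabp6, the bile acid binding protein of the ileum, was at 45.8, 138, 18.9, 22.9, 34.8 and 18.3 CPM in controls 1 to 6 (log2 SD 1.10, length-adjusted SD 1.30). Slc10a2, the bile acid transporter of the ileum, was at 14.1 CPM in control 2 and 1.9 to 4.65 CPM in the others. Onecut2, a transcription factor gene of the proximal small intestine, was at 1.04 CPM in control 2 and 5.06 to 14.2 CPM in the others. Control 2 thus had the highest level of both bile acid genes and the lowest of Onecut2. Of 12 measured genes on the ileum list, 5 had an SD of 1 or more (6.48% of all genes), but some did not single out control 2: Slc51a lay between 253 and 305 CPM, and Fgf15, an ileal hormone, was at 22.9 CPM in control 1 and 30.4 CPM in control 2 against 1.09 to 13.5 CPM. Gata4 was lowest in control 2 (61.1 CPM) and next lowest in control 6 (71.4 CPM).

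Genes that respond to microbes or inflammation differed in opposite directions within the epithelium. Duox2, which makes hydrogen peroxide at the brush border, was at 447, 337, 106, 202, 168 and 15.1 CPM in controls 1 to 6 (log2 SD 1.74, length-adjusted SD 1.27). Its partner Duoxa2, a shorter transcript, was at 196, 91.7, 47.7, 61, 44.5 and 14.3 CPM, again highest in control 1 and lowest in control 6. Nos2, inducible nitric oxide synthase, was at 22 CPM in control 6 and 112 to 319 CPM in the others. The antibacterial lectin gene Reg3g, by contrast, was at 1162 and 967 CPM in controls 1 and 2 and at 1638 to 2238 CPM in the other 4 libraries, and Reg3b was at 1656 and 1605 CPM against 3024 to 4204 CPM. Saa1, a serum amyloid gene of the inflamed gut, was low throughout (1.75 to 4.31 CPM).

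Pla2g4c, a cytosolic phospholipase, divided the controls without overlap. It was at 128 and 135 CPM in controls 1 and 2 and at 3.43, 6.55, 5.92 and 3.1 CPM in controls 3 to 6 (log2 SD 2.54, length-adjusted SD 2.50). Clu, the chaperone clusterin, was at 70.6, 283, 12.6, 13.6, 24.9 and 7.18 CPM, with control 2 highest and control 1 next. Scd1, which desaturates fatty acids, was at 248, 131, 18.3, 16.6, 41.9 and 46.8 CPM, and C3, complement component C3, at 68.2, 179, 23.9, 29.6, 40.7 and 11 CPM. Controls 1 and 2 were the highest libraries for each of these genes, as they were for B cell genes, and the part of follicle tissue in these values was not tested. The pore-forming gasdermin genes Gsdmc3, at 62.8, 33, 9.79, 8.52, 21.2 and 13.9 CPM, and Gsdmc4, at 317, 201, 86, 92, 136 and 77.2 CPM, had the same pair on top.

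Crypt genes differed less once the length trend was removed. The stem cell receptor gene Lgr5 was at 11.2, 16.7, 7.63, 11.5, 12.5 and 3.54 CPM in controls 1 to 6 (log2 SD 0.78, length-adjusted SD 0.51). Olfm4, the other classical stem cell marker, lay between 522 and 946 CPM and was at 788 CPM in control 6. The crypt base stem cell score had an SD of 0.43, and 0.19 with the trend removed. Mki67, a long transcript of dividing cells, was at 26.6 CPM in control 6 and 61.7 to 156 CPM in the others, whereas Ccna2 (cyclin A) was at 55.6 to 74.8 CPM. None of 20 mitosis genes and none of 20 DNA replication genes had an SD of 1 or more, which for lists of this size is near the 6.48% of all genes. Goblet genes moved in both directions: Fcgbp, a long mucus protein transcript, was at 572 CPM in control 6 and 1443 to 3407 CPM elsewhere, and Tff3, a short trefoil peptide transcript, at 1073 CPM against 241 to 593 CPM.

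Genes induced by interferon formed a gradient with control 3 at the top. Ubd, a ubiquitin-like gene that interferon-gamma and TNF induce, was at 28, 20, 500, 98.5, 261 and 295 CPM in controls 1 to 6 (log2 SD 1.91, length-adjusted SD 1.69). Isg15 was at 23.1, 9.35, 70.1, 26.3, 20.5 and 45.1 CPM, and Igtp, an interferon-induced GTPase, at 63.7, 36.7, 208, 67.6, 124 and 115 CPM. Control 3 was highest and control 2 lowest for Isg15 and Igtp as for Ubd. The interferon list had a score of 5.44 in control 3, 4.18 in control 2 and 4.66 to 4.80 in the others (SD 0.40, and 0.41 with the trend removed). None of its 20 genes reached an SD of 1, again near the 6.48% of all genes, although Isg15 came close.

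Several genes of antigen presentation and of intraepithelial lymphocytes were highest in controls 3 and 6. H2-Aa, a chain of MHC class II, was at 452, 652, 1488, 935, 1039 and 1534 CPM in controls 1 to 6, and the immunoproteasome gene Psmb8 at 93.3, 88.4, 283, 145, 188 and 291 CPM. Controls 3 and 6 were highest and controls 1 and 2 lowest for both. The class II list as a whole did not follow that order. Its score was highest in control 2 (6.81), then control 3 (6.68) and control 6 (6.65), and lowest in control 1 (6.03). Cd74, the most abundant gene of the list, held a smaller share of counts in control 6 than in controls 3, 4 and 5. The class II genes that B cells favour ran the other way: H2-Ob was at 6.06 CPM in control 1 and 16.9 CPM in control 2, against 1.19 to 2.44 CPM. Gzma, granzyme A of intraepithelial lymphocytes and NK cells, was at 65.6, 36.8, 198, 59.1, 96.9 and 314 CPM (log2 SD 1.16, length-adjusted SD 0.79), and the chemokine gene Ccl5 at 27.1, 19.9, 74.1, 25, 40.9 and 75.8 CPM. Controls 3 and 6 were the highest libraries for both of these as well. They were also the controls with the lowest length slopes. The score of the intraepithelial lymphocyte and NK cell list was 3.34 in control 3 and 3.48 in control 6 (SD 0.53). With the length and GC trend removed it was 3.33 and 3.18 (SD 0.41), against 2.35 to 2.84 in the others.

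Among genes that bind or carry zinc, the metallothioneins varied most. Mt2 was at 1.84, 9.29, 24.3, 7.03, 4.13 and 37.7 CPM in controls 1 to 6 (log2 SD 1.59), and Mt1 was at 16.1, 25.5, 63.8, 29.1, 17.2 and 102 CPM (log2 SD 1.06). Control 6 was highest and control 3 next for both, and these were also the controls with the lowest length slopes. The zinc transporter gene Slc39a4, whose product takes up dietary zinc, lay between 95.1 and 187 CPM. Dbp, a clock output gene, was at 21.1 CPM in control 6 and 2.83 to 6.34 CPM elsewhere, and Per1 was at 4.27 CPM in control 3 and 4.45 CPM in control 6 against 11.9 to 26.7 CPM. The core clock gene Clock was steady, at 63.3 to 79.3 CPM.

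Some stress programmes were among the steadiest lists. The unfolded protein response score ran from 6.67 to 6.94, with Hspa5, the chaperone BiP, at 365 to 615 CPM. The p53 target score lay between 3.45 and 3.53 in controls 1 to 5 and at 3.78 in control 6. Cdkn1a, the p53-induced cell cycle inhibitor p21, was at 166, 118, 266, 202, 177 and 209 CPM in controls 1 to 6 (log2 SD 0.39). Immediate early genes, which handling of tissue can induce, had a score of 3.62 to 3.71 in controls 1 to 5 and 2.98 in control 6 (score SD 0.28, and 0.18 with the trend removed), and Fos was at 58.4 to 127 CPM.

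Whether unirradiated jejunum is more or less variable than irradiated jejunum was tested for each of 16257 genes on the absolute deviations of log2 CPM from the group mean, with limma and Benjamini-Hochberg adjustment. Against CONV, 4 genes (0.0246%) had an adjusted p below 0.05 (884 had an unadjusted p below 0.05). The spread in control was wider for Gm6741 and Abhd4 (0.0123%) and narrower for Gm27252 and Gm8318 (0.0123%). Against FLASH, 181 genes (1.11%) passed, 17 wider in control (0.105%) and 164 narrower (1.01%). Taking deviations from the group median, or squaring them, left 0 genes in either limma comparison (190 and 527 with an unadjusted p below 0.05 against CONV, 798 and 1640 against FLASH), so the calls depend on how spread is measured.

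Abhd4, a lipase of N-acyl phospholipid metabolism, was at 60.9, 47, 90.5, 91.1, 60.4 and 99.5 CPM in controls 1 to 6, at 104 to 112 CPM over the 5 CONV libraries and at 101 to 130 CPM over the 7 FLASH libraries. The mean absolute deviation was 0.38 log2 units (SE 0.085) wider in control than in CONV (limma adjusted p = 0.0367) and 0.30 wider than in FLASH (adjusted p = 0.0248). The controls were thus both lower and more scattered. Ighv7-1, described above for its range over the controls, was at most 0.558 CPM in the CONV libraries and 0.64 CPM in the FLASH libraries. Its deviations were 3.18 log2 units (SE 0.739) wider in control than in FLASH (limma adjusted p = 0.0131). They were 2.83 wider than in CONV (limma adjusted p = 0.291). At levels as low as those of the irradiated libraries, the prior count added before taking logs limits how far values can spread. For Ighv7-1 the test therefore cannot separate a difference in spread from the difference in level.

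Genes steadier in control than in FLASH were led by Kctd21, an adaptor of cullin ubiquitin ligases. It was at 9.7 to 12.2 CPM in the controls and at 0.361 to 19.6 CPM in the FLASH libraries, with a median of 11.1 CPM (difference in deviation -1.84 log2 units, SE 0.344, limma adjusted p = 0.00149). Tada3, a subunit of histone acetyltransferase complexes, was at 20.8 to 22.8 CPM in control and 11.6 to 24.1 CPM in FLASH. Pank1, which starts coenzyme A synthesis, was at 12.4 to 15 CPM in control and 2.85 to 22.7 CPM in FLASH, and Invs, a gene of primary cilia, at 5.41 to 6.8 CPM and 0.762 to 9.46 CPM. Over all 16257 genes 54.9% had a larger mean deviation in control than in CONV and 48.7% a larger one than in FLASH. Without control 6 these shares were 31.2% and 25.5%, and 10 and 245 genes passed.

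**Figure D5:**
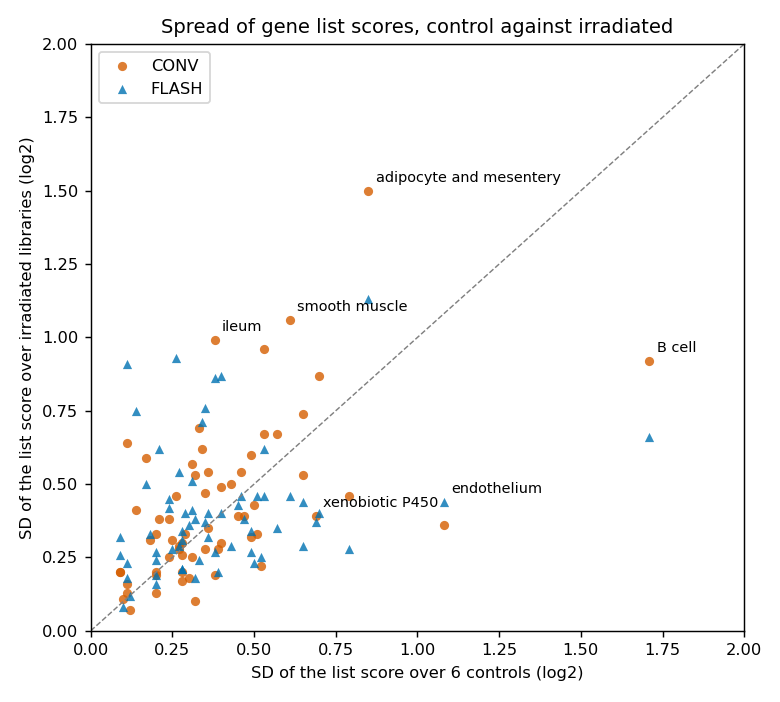
SD of each gene list's score over the 6 controls (horizontal axis, log2) against its SD over the CONV (circles) or FLASH (triangles) libraries (vertical axis, log2), with the dashed line where both are equal. B cell (1.71 against 0.92 and 0.66) and endothelial lists (1.08 against 0.36 and 0.44) lie below the line, and the adipocyte list (0.85 against 1.5 and 1.13) above it.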

How the data were processed

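Jejunum in 18 libraries was sequenced as stranded mRNA (250 ng RNA, single-end reads of 100 bp, per the labels). Per the submitters' processing notes, mm10, STAR, Salmon, edgeR 3.40.2 and limma 3.54.2 were used. STAR and Salmon versions are not given in the sources used here. The authors deposited a table of expected counts for 54532 genes, unnormalized and not all whole (74.4% of non-zero control values are whole), and a table of log2 expression values, used here only as an alternative. Counts were rounded for edgeR. Of the gene IDs, 54495 matched the mm10 annotation, and the other 37 held at most 0.00276% of a library's counts.

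Levels are CPM with TMM scaling over all 18 libraries (edgeR 4.0.16), and log2 CPM has a prior count of 2. Levels were not tested between groups, and where levels of CONV or FLASH libraries are set beside the controls, no test was made. Spread was the SD over the 6 controls for 10802 genes with a mean of at least 5 CPM. Spread between groups was tested over 16257 genes kept by filterByExpr with limma 3.58.1 on absolute deviations, all 18 libraries in the fit and Benjamini-Hochberg adjustment. The test was checked on simulated counts, in which it missed most genes whose spread had been widened and called some unchanged genes. A gene that was not called is therefore not shown to have equal spread. Length and GC trends were removed per library by a spline with 4 degrees of freedom. Length-scaled levels are counts divided by transcript length and rescaled to the total of CPM. Control pairs were compared and none was a duplicate. R 4.3.3, Python 3.11.15 and DESeq2 1.42.0 (size factors, as an alternative) were used.

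Other alternatives were other scalings, filters and prior counts, other measures of spread, and leaving out each library. Named genes followed a rule: the 20 highest by CPM and by length-scaled level, the 20 most variable and the 10 steadiest, the most variable and most abundant members of each list, the genes with the largest loadings, the 5 with the smallest p per direction of a spread test, and a fixed set of markers. Some genes that the rule names are not reported here. Ak6, Ang4, Cdx2, Cldn5, Clu, Cr2, Egfl7, Epcam, Fcer2a, Gm7849, Ighg2b, Ighv1-26, Madcam1, Pax5, Pdx1, Pla2g2a, Scd1, Slc10a2, Ubd and Vil1 were chosen after their values were seen. The groups, members and lists were chosen with earlier results of these data known. The numbers of the libraries do not pair them: correlations of same-numbered deviations ran from -0.27 to 0.606, and no label ties a number to a litter or day.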

Additional observations from a re-analysis of the deposited data

Results flagged for a closer look

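In 20 results, 1 of the 6 control libraries lay far from the nearest of the others (Dixon's gap at 95%, which chance passes in about 1 of 20 groups). They were 12 of 162 genes named with values, 5 of 63 list scores and 3 of 21 class shares. Over all 10802 genes with a mean of at least 5 CPM the share was 16.2% (1749 genes). The named genes were thus not flagged more often than genes at large.

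Control 6 was the library apart for most of them. It was low for the large intestine list (score 4.90, mean log2 CPM), the microbe-induced epithelial list (3.60) and the immediate early list (2.98), and high for p53 targets (3.78). It was high for the share of counts in long noncoding RNA genes (1.39%), cytosolic ribosomal protein genes (5%) and the pair Gm42418 and AY036118 (0.906%). Among genes it was high for Gm42418 (8568 CPM), Igkv4-69 (29.1 CPM) and Mob1a (131 CPM, where the others lay between 119 and 122 CPM). It was low for Nos1 (0.219 CPM) and Polr2a (16.2 CPM), both long transcripts, in the library whose level fell most with transcript length.

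Control 2 was low for the hypoxia-inducible list (4.44) and high for Cd79a (65.1 CPM) and Dcn (158 CPM). Control 4 was high for Igkv3-1 (30.1 CPM). Control 3 was high for Cct2 (167 CPM), a gene whose other values lay between 152 and 154 CPM.

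The defensin copies Defa31 (74.2 CPM in control 1), Defa32 (7.18 CPM in control 4) and Defa33 (0 CPM in control 5) also had a library apart. Each has a copy with an identical coding sequence, and the sums with that copy had a log2 SD of 0.24 for Defa31 and 0.54 for the other pairs.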

How the results depend on the processing

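Control 6 decides much of the measured variation. Without 1 control in turn, the 391 genes with an SD of 1 or more became 161 to 529, with 161 when control 6 was left out. The 15 lists with a score SD of 0.5 or more became 9 to 18, with 9 without control 6 and 10 without control 2 or with the length and GC trend removed. The gene count was 197 with that trend removed, 660 at a mean of at least 1 CPM, 162 at 20 CPM, 170 by the median absolute deviation and 260 on the authors' deposited log2 values. It was 361 to 486 under 4 other scalings, 399 with a prior count of 0.5 and 330 without genes that share sequence (an alternative chosen after seeing the data). For genes with 1 control library apart the count was 1095 with the trend removed. The top 50 genes held 21.3% of counts, and 19.2% without mitochondrially encoded genes. The main axis of variation among controls held 54% to 75.1% of the variance when 1 control was left out.

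The limma spread tests depend most on the settings. Deviations from the group median and squared deviations gave 0 and 0 genes against CONV and 0 and 0 against FLASH. A filter of at least 1 count in any library gave 4335 and 6648 (33352 genes tested), and fitting only the 2 groups gave 10 and 13. A mean of at least 20 CPM gave 0 against CONV (194 with an unadjusted p below 0.05) and 92 against FLASH. Library totals gave 1 against CONV, and the trend removed gave 304 against FLASH. Leaving out 1 library gave 0 to 10 against CONV, with 0 without CONV 5 (1006 with an unadjusted p below 0.05), 1 without control 2, CONV 3 or CONV 7, 2 without control 1 or control 4, and 10 without control 6. Against FLASH it gave 46 to 479: fewer without controls 1 to 5 (46 to 119), FLASH 1 (90) or FLASH 2 (68), and more without FLASH 6 (479), FLASH 7 (345) or FLASH 9 (351). The cause was not tested. With the replicate number as a block the counts were 3 and 125, and the numbers do not pair the libraries. Depth limits the rarest genes: 3 counts in a control library are 0.0892 to 0.112 CPM.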

Other observations

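Several of the genes that differed most between control libraries were low in all irradiated libraries. Ighv7-1, at 0.5, 0.472, 113, 213, 68.1 and 273 CPM in controls 1 to 6, was at 0 to 0.558 CPM in the 5 CONV and 0.0395 to 0.64 CPM in the 7 FLASH libraries. Igkv8-28 was at 6.41 to 572 CPM in the controls, 0.0902 to 1.82 CPM in CONV and 0.196 to 3.29 CPM in FLASH libraries. Other antibody genes were lower after irradiation but stayed detectable: Igha, at 3886 to 8209 CPM in the controls, was at 344 to 1282 CPM in CONV and 596 to 1506 CPM in FLASH libraries, and Ighv1-26, at 23 to 122 CPM, was at 5.65 to 48.9 CPM and 6.39 to 50 CPM. For Ighv7-1 the irradiated libraries thus matched the level of controls 1 and 2 and lay far below controls 3 to 6. No test was made of these contrasts.

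Gsdmc3, a gasdermin of the epithelium, was at 8.52 to 62.8 CPM in the controls, 0 to 0.541 CPM in CONV and 0.132 to 5.29 CPM in FLASH libraries. Pla2g4c, at 128 and 135 CPM in controls 1 and 2 and 3.1 to 6.55 CPM in the others, was at 0.406 to 1.49 CPM in CONV and 0.213 to 34.6 CPM in FLASH libraries. Ubd overlapped between groups, with 20 to 500 CPM in the controls, 5.73 to 105 CPM in CONV and 11.9 to 75.4 CPM in FLASH libraries. The distance of the irradiated libraries from the controls for Ighv7-1 and Pla2g4c thus differs with the control it is taken from.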
